A study of Mus musculus with 8 samples.

Results

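The genes described here build, lengthen and desaturate fatty acids. They are Acss2 and Acly, which supply acetyl-CoA, Acaca and Fasn, which turn it into palmitate, the elongases Elovl5 and Elovl6, and the desaturases Fads1, Fads2, Scd1 and Scd2. They were chosen by name as members of the pathway, with no threshold on a measured value but with earlier results of these data known. All 10 were found among the 41591 gene IDs of the count tables and were abundant enough to be tested. Their messenger RNA was sequenced from the whole ovary of each of 8 female C57BL/6 mice about 3 weeks of age, 4 in each of 2 groups. The double knockout group (DKO) is labelled as lacking both Insr, the insulin receptor gene, and Igf1r, the gene of the insulin-like growth factor 1 receptor, and the study's design text calls the knockout conditional. The Control group consists of littermates whose label reads wild-type, Pgr-Cre positive, which means that they carried Cre recombinase under control of the progesterone receptor gene. The label of the DKO group names no Cre driver. All mice of both groups had received 4 IU of equine chorionic gonadotropin (eCG), which makes follicles grow, followed after 48 h by 5 IU of hCG (human chorionic gonadotropin), a substitute for the surge of luteinizing hormone. Ovaries were collected 12 h after hCG, around the time of ovulation. The comparison asks which ovarian genes depend on the receptors for insulin and insulin-like growth factor 1 at that time.

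Fatty acid synthesis starts in the cytosol with acetyl-CoA, which ATP citrate lyase (Acly) cuts from citrate and acetyl-CoA synthetase (Acss2) makes from acetate. Acetyl-CoA carboxylase (Acaca) converts it to malonyl-CoA, and fatty acid synthase (Fasn) joins these units into palmitate. Elongases add carbons, Scd enzymes place a double bond into saturated chains, and the Fads enzymes add further double bonds to polyunsaturated chains from the diet. In the ovary the products serve membranes, lipid droplets and the supply of arachidonic acid for the prostaglandins of ovulation. In liver, insulin is known to raise many of these genes through the transcription factors SREBP, LXR and ChREBP.

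The libraries held 33145056 to 39257648 counts in genes. Insr averaged 126 ± 16.8 CPM (the count as a share of the library, scaled to CPM with TMM factors) in DKO and 155 ± 10.3 CPM in Control ovaries (SD, n = 4 each), and Igf1r 214 ± 22.4 CPM in DKO and 236 ± 28.6 CPM in Control ovaries. Neither passed the test (edgeR's quasi-likelihood test, adjusted p = 0.226 and 0.639). Pgr itself averaged 1.61 ± 0.537 CPM in DKO and 4.86 ± 1.75 CPM in Control ovaries (log2 fold change -1.59 ± 0.36, adjusted p = 0.0665). A deleted exon cannot be seen in counts over whole genes, and cells without Pgr are part of the ovary too, so these values are a weak check of the genotype labels. Markers of granulosa cells, luteal cells, theca and oocytes were all present. The first principal component, with 38.3% of the variance, placed DKO replicate 1, DKO replicate 2 and Control replicate 1 at 36.9 to 58.0 and the other 5 ovaries at -42.8 to -14.0. The same 3 ovaries carry the lowest numbers in their sample titles, here called the earlier titles, and the other 5 carry later ones. The labels do not say what the numbers stand for. DKO replicate 2 and Control replicate 1 held far more of the oviduct gene Ovgp1 than the others (742 and 1214 CPM without TMM scaling, against 2.52 to 22.5). DKO replicates 1 and 2 held 2.45% and 2.32% of counts in the ribosomal RNA gene Rn18s-rs5, against 0.113% to 0.263% in the other 6.

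Of the 10 genes, Acss2, Elovl5, Fads1 and Fads2 rose in DKO ovaries and none fell. Each is tested with edgeR's quasi-likelihood F-test, and a gene is called when its p, adjusted over all 16870 genes tested with the Benjamini-Hochberg method, is under 0.05. Over all genes tested, 0.759% were called higher and 0.498% lower in DKO, so 4 of 10 stands above the share in the whole table. Acly, Elovl6 and Scd2 were also higher in every DKO ovary than in every Control ovary without passing the test, which makes 7 of the 10 genes without overlap between the groups. Among all genes tested, 5.7% of genes lay above in this way and 3.54% below. Acaca, Fasn and Scd1 overlapped between the groups. Fitted log2 fold changes (DKO over Control) lay above 0 for 9 of the 10 genes, with a median of 0.51, against 46.9% of all genes and a median of -0.02. Because the 10 genes were chosen with earlier results of these data known, none of these comparisons with all genes is independent of the values. A whole ovary is a mixture, so more cells of a type and more messenger RNA per cell cannot be told apart in any of these values.

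**Figure D1:**
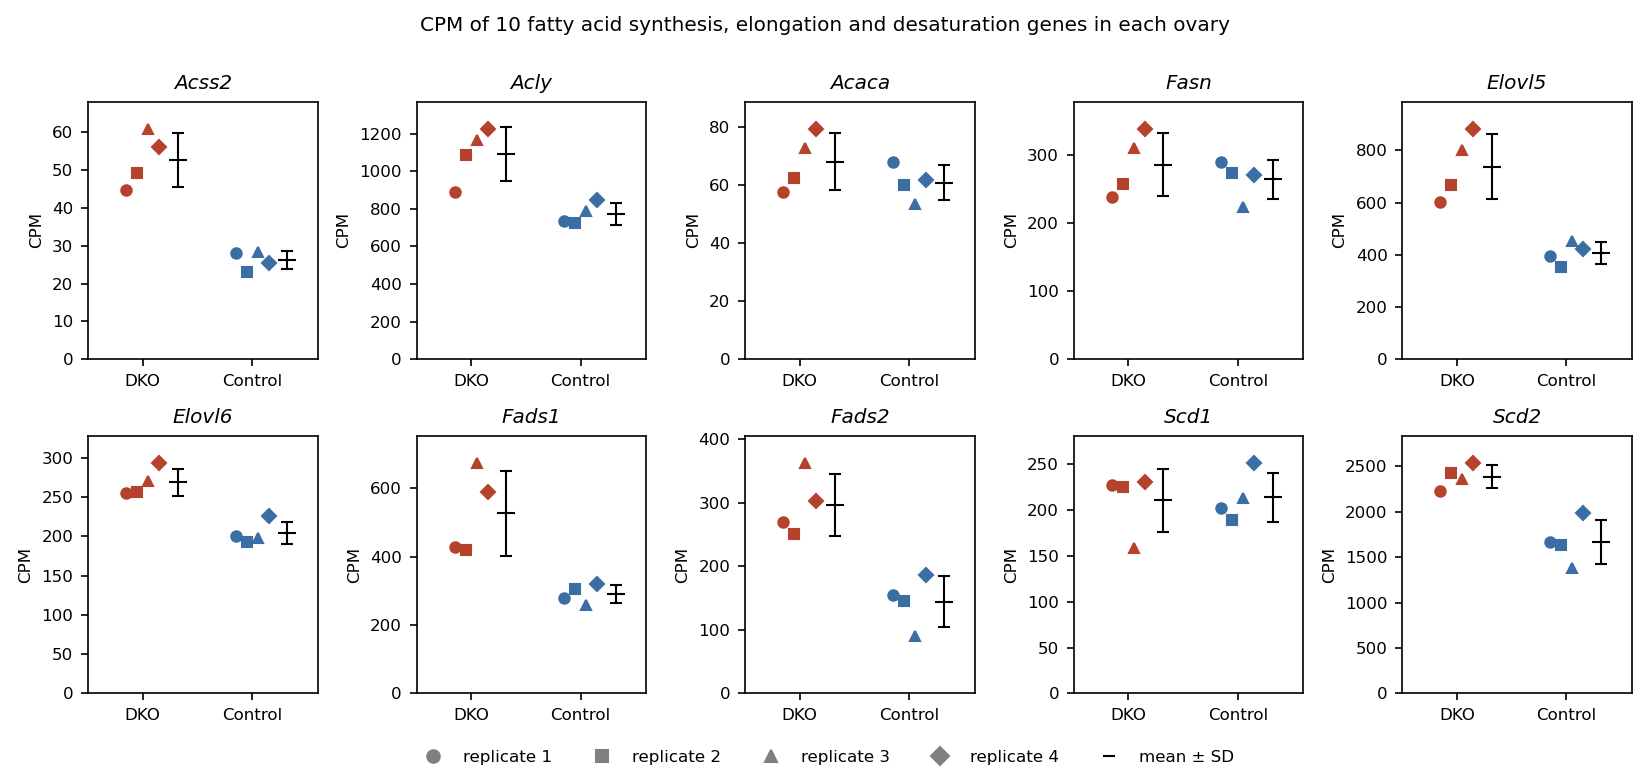
CPM of each gene in each of the 4 DKO (left, red) and 4 Control (right, blue) ovaries, with a linear axis from 0 for every gene, a marker shape for each replicate number, and black bars for mean ± SD. Groups do not overlap for Acss2, Acly, Elovl5, Elovl6, Fads1, Fads2 and Scd2, while Acaca, Fasn and Scd1 have DKO and Control ovaries side by side.

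The promoters of 3 genes that rose, Acss2, Elovl5 and Fads2, are shown with that of Fasn, which did not pass the test, because the genes of this pathway are textbook targets of SREBP, which binds sterol regulatory elements. The sequences are the RefSeq entries for mouse assembly GRCm38.p6, 250 bases before to 50 bases after the start site that table uses, printed 5′ to 3′ on the gene's own strand. That site is the gene start of the count tables for Elovl5, Fads2 and Fasn, while for Acss2 it is 155518043, which lies 90 bases inside the gene as the count tables have it. Their positions are chr2:155517793-155518092 (plus strand) for Acss2, chr9:77917115-77917414 (plus) for Elovl5, chr19:10101454-10101753 (minus) for Fads2 and chr11:120824498-120824797 (minus) for Fasn. Capitals mark matches, on either strand, to the CCAAT box (CCAAT), the GC box (GGGCGG) and the E-box (CACGTG).
Acss2: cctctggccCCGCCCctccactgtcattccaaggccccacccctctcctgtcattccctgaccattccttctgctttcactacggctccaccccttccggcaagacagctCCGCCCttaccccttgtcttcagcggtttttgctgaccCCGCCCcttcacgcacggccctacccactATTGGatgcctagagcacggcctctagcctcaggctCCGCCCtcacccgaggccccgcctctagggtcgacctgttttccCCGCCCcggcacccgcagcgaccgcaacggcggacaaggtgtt
Elovl5: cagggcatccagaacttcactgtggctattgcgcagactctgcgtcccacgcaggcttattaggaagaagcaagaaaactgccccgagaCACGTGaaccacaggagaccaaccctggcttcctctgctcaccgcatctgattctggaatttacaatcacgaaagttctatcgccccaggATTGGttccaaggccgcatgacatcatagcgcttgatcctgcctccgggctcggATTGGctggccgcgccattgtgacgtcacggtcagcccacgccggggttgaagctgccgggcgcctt
Fads2: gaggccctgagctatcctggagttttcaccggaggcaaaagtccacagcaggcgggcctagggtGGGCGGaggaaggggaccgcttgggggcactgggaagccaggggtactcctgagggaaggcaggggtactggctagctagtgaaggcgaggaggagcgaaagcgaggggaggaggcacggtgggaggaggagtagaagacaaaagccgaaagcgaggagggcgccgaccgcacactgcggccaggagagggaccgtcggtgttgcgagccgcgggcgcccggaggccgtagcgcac
Fasn: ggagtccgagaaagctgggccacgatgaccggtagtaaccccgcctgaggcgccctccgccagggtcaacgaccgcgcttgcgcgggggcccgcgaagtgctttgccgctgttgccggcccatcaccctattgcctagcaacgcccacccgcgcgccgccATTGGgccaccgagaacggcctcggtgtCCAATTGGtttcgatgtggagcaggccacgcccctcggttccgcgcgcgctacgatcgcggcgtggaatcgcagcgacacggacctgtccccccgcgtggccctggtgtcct
The sterol regulatory element, searched as TCACNCCAC on both strands, matched 0 of the 7 members that have an entry, which besides these are Elovl6, Acaca and Acly. For Acaca the table's start site lies 65761 bases inside the gene of the count tables, so its window is not at that gene's outer start, and it held none of the motifs. The sterol regulatory element occurs in 1.24% of the 32851 promoters of the table. At so low a share, 0 matches among 7 windows carry little information. The Acss2 window holds 5 GC boxes and 1 CCAAT box, which begins 73 bases before the site at 155518043 and so inside the gene of the count tables. The Elovl5 window holds 2 CCAAT boxes and 1 E-box, and that of Fads2 has 1 GC box. The Fasn window, of a gene that overlapped between the groups, holds 3 CCAAT boxes, of which a pair on opposite strands shares letters. A CCAAT box was found in 4 of the 7 members, a GC box in 3 and an E-box in 1, against 37.4%, 35.7% and 7.15% of all promoters in the table. These are matches of letters in a fixed window and say nothing about binding.

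Of the acetyl-CoA genes, Acss2 rose and Acly did not pass the test. Acss2 (gene ID 60525, chromosome 2, 155517953 to 155562746 in GRCm38.p5), whose promoter with its 5 GC boxes is printed above, was at 44.7, 49.4, 60.9 and 56.3 CPM in DKO replicates 1 to 4, against 28.2, 23.1, 28.3 and 25.4 CPM in Control replicates 1 to 4. The lowest DKO ovary stood 1.58-fold above the highest Control ovary, the widest gap of the 10 genes. This is a log2 fold change of 1.01 ± 0.12 (SE), with an adjusted p of 0.0122 by edgeR's quasi-likelihood test. The call ended only when Control replicate 2 or DKO replicate 3 was left out (adjusted p = 0.0723 and 0.0545), and it held in the other 6 fits without 1 ovary. Its exons share 152 of 3184 bases with Acss2os on the opposite strand, and the counting used strand. Acly (gene ID 104112, chromosome 11, 100476352 to 100528000), the citrate route to acetyl-CoA, was at 889.5, 1087, 1165 and 1224 CPM in DKO, against 733, 722, 791 and 847 CPM in Control ovaries. All DKO ovaries lay above all Control ovaries, but the margin between DKO replicate 1 and Control replicate 4 was 1.05-fold. Its log2 fold change of 0.50 ± 0.13 did not pass the test (adjusted p = 0.0964).

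The genes of palmitate synthesis itself did not separate the groups. Acaca (gene ID 107476, chromosome 11, 84129677 to 84401651), the enzyme that commits acetyl-CoA to fatty acids, was at 57.8, 62.6, 72.8 and 79.3 CPM in DKO, against 67.9, 60.2, 53.5 and 62.0 CPM in Control ovaries. DKO replicates 3 and 4 lay above every Control ovary, and DKO replicates 1 and 2 lay below Control replicate 1. Fasn (gene ID 14104, chromosome 11, 120805958 to 120824547) was at 238, 257, 310.1 and 338 CPM in DKO, against 290.3, 273, 223 and 270.3 CPM in Control ovaries. The order of the ovaries was alike for both genes, with DKO replicates 3 and 4 highest and Control replicate 3 lowest. On the log2 scale the differences were 0.16 ± 0.12 for Acaca and 0.11 ± 0.14 for Fasn, without a call for either gene (adjusted p = 0.595 and 0.764). In standardised log2 CPM over the 8 ovaries Acaca and Fasn differed by a root mean square of 0.22, the second smallest distance between any pair of the 10 genes.

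Both elongases were higher in every DKO ovary, and Elovl5 passed the test. Elovl5 (gene ID 68801, chromosome 9, 77917365 to 77984519), which lengthens polyunsaturated fatty acids, was at 604, 665, 801 and 881 CPM in DKO, against 394, 354, 452 and 424 CPM in Control ovaries. The groups were far apart, the lowest DKO value being 1.34-fold above the highest Control value, and DKO replicates 3 and 4 were the highest. The log2 fold change was 0.86 ± 0.14 (adjusted p = 0.0288). The call ended without Control replicate 2 or 4 (adjusted p = 0.132 and 0.0864) and without DKO replicate 2, 3 or 4 (0.0532, 0.0959 and 0.0513), and held without Control replicate 1 or 3 or DKO replicate 1. Elovl6 (gene ID 170439, chromosome 3, 129532386 to 129638495), which lengthens palmitate to stearate, was at 255, 257, 271 and 293 CPM in DKO, against 201.03, 193, 198 and 226 CPM in Control ovaries. Its groups were tight, with SDs of 17.5 CPM in DKO and 14.5 CPM in Control ovaries, and did not overlap. With the smallest log2 fold change among the 7 genes without overlap, 0.40 ± 0.10, it did not pass the test (adjusted p = 0.0862).

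The front-end desaturases, Fads1 and Fads2, rose together. Fads2 (gene ID 56473, chromosome 19, 10064164 to 10101503) opens the conversion of linoleic acid to longer polyunsaturated acids, and was at 269.9, 251, 362 and 303 CPM in DKO, against 156, 145, 89.7 and 186 CPM in Control ovaries. Control replicate 3 stood far below the other Control ovaries, and DKO replicate 3 was the highest of all 8. The log2 fold change was 1.04 ± 0.21, the largest of the 10 genes, with an adjusted p of 0.049, just under the threshold. Fads1 (gene ID 76267, chromosome 19, 10182888 to 10196874), which makes arachidonic acid, was at 428, 419, 672 and 588 CPM in DKO, against 278, 304, 259.1 and 321 CPM in Control ovaries. The 2 lower DKO ovaries were replicates 1 and 2, which were still 1.30-fold or more above the highest Control ovary. Its log2 fold change was 0.86 ± 0.17 (adjusted p = 0.0451). Fads1 did not pass in any of the 8 fits without 1 ovary (adjusted p = 0.0532 to 0.164), and Fads2 passed in only 1 of them, without Control replicate 3, where its log2 fold change was 0.87 (0.0287), against 0.057 to 0.183 in the other 7. The log2 fold change was 0.73 or higher for Fads1 and 0.87 or higher for Fads2 in all 8.

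Of the stearoyl-CoA desaturases, which make monounsaturated fatty acids such as oleate, Scd2 was higher in all DKO ovaries and Scd1 was not. Scd2 (gene ID 20250, chromosome 19, 44293676 to 44306864), the more abundant form per length in these ovaries, was at 2227, 2422, 2354 and 2530.0 CPM in DKO, against 1662, 1635, 1382 and 1984 CPM in Control ovaries. The lowest DKO value exceeded the highest Control value 1.123-fold. A log2 fold change of 0.52 ± 0.13 did not pass the test (adjusted p = 0.0921). Scd1 (gene ID 20249, chromosome 19, 44394450 to 44407709), the major form of liver and fat, was at 227, 224, 159 and 230.1 CPM in DKO, against 202.07, 189, 213 and 251 CPM in Control ovaries. DKO replicate 3 was the lowest of all 8 ovaries, and the other 3 DKO ovaries lay among the Control ovaries. The log2 fold change was -0.02 ± 0.14 (adjusted p = 0.956), which does not show that the groups were equal. The sequences of Scd1 and Scd2 are close relatives, and reads in stretches they share could not be split with certainty.

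**Figure D2:**
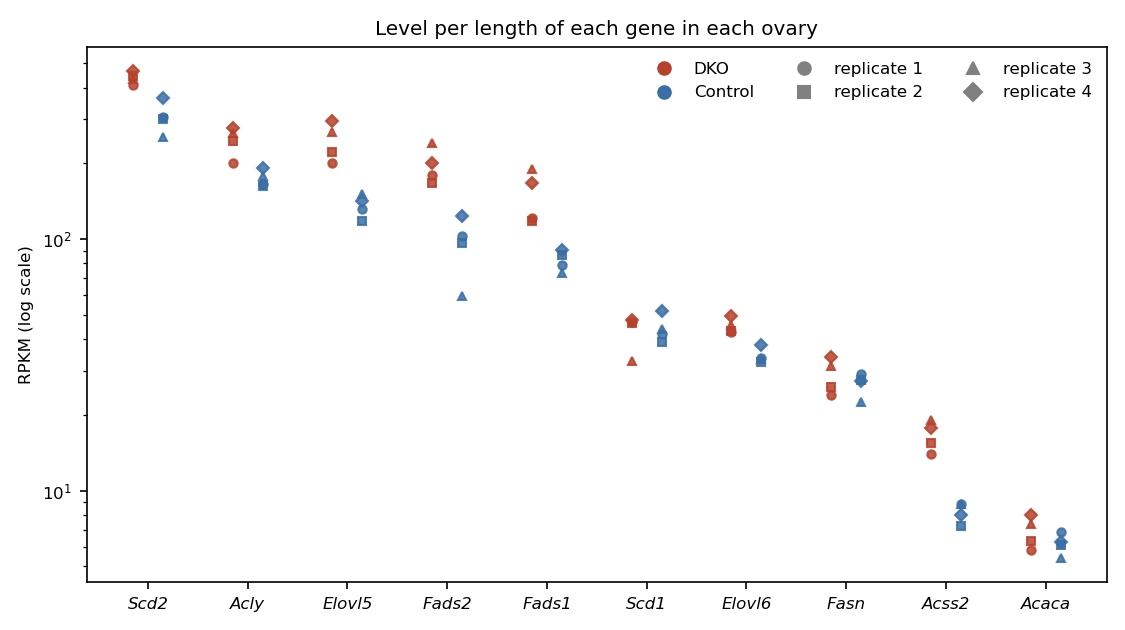
Level per length (RPKM, log axis) of each gene in each ovary, genes ordered by their mean in Control ovaries, DKO in red on the left and Control in blue on the right of each gene, with a marker shape for each replicate number. Scd2 is the highest gene in all 8 ovaries and Acaca the lowest, and the first 5 genes stand above the other 5 in every ovary.

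Levels can be compared between genes only per length, as RPKM (the same CPM divided by the exon length in kilobases). On this scale Scd2 was the most abundant, at 437 ± 23.3 RPKM in DKO and 305 ± 45.2 RPKM in Control ovaries (mean ± SD, n = 4 each). Acly, Elovl5, Fads2 and Fads1 followed, at 247, 246, 197 and 149 RPKM in DKO and 175, 135, 95.7 and 82.2 RPKM in Control ovaries. The other 5 were lower, with Scd1 at 43.4 RPKM in DKO and 44.2 RPKM in Control, Elovl6 at 45.2 and 34.3 RPKM, and Fasn at 28.8 and 26.6 RPKM. Acss2, the gene with the clearest rise, was among the least abundant, at 16.6 ± 2.25 RPKM in DKO and 8.24 ± 0.782 RPKM in Control ovaries, and Acaca was lowest, at 6.87 and 6.15 RPKM. Among neighbours in this order, Elovl5 and Fads2, and Fads2 and Fads1, had overlapping ranges in both groups. Acly and Elovl5, and Scd1 and Elovl6, overlapped in DKO ovaries and not in Control ovaries. The sum over the 10 genes ran from 1244 to 1558 RPKM in DKO and from 829 to 1042 RPKM in Control ovaries, without overlap. RPKM depends on the exon length in the tables, which for Fads2 is 1508 bases, the shortest of the 10 genes.

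The balance between related genes within an ovary is given here as ratios of RPKM, with no test. These ratios restate the values above, since they shift wherever the fold changes of a pair differ. The share of other gene pairs that separate in this way was not computed, so the ratios are no further result. Scd1 over Scd2 was 0.115, 0.104, 0.076 and 0.103 in DKO, against 0.137, 0.131, 0.173 and 0.142 in Control ovaries. Every DKO ovary was below every Control ovary, with means of 0.0995 ± 0.0166 in DKO and 0.146 ± 0.0190 in Control. Elovl5 over Elovl6 was 4.69, 5.13, 5.86 and 5.96 in DKO, against 3.88, 3.64, 4.52 and 3.73 in Control ovaries, so all DKO ovaries were above. Acss2 over Acly was 0.0699, 0.0632, 0.0726 and 0.0639 in DKO, against 0.0535, 0.0444, 0.0497 and 0.0417 in Control ovaries, again with all DKO ovaries above. Fads1 over Fads2, at 0.677 to 0.827 in DKO and 0.735 to 1.23 in Control ovaries, overlapped.

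**Figure D3:**
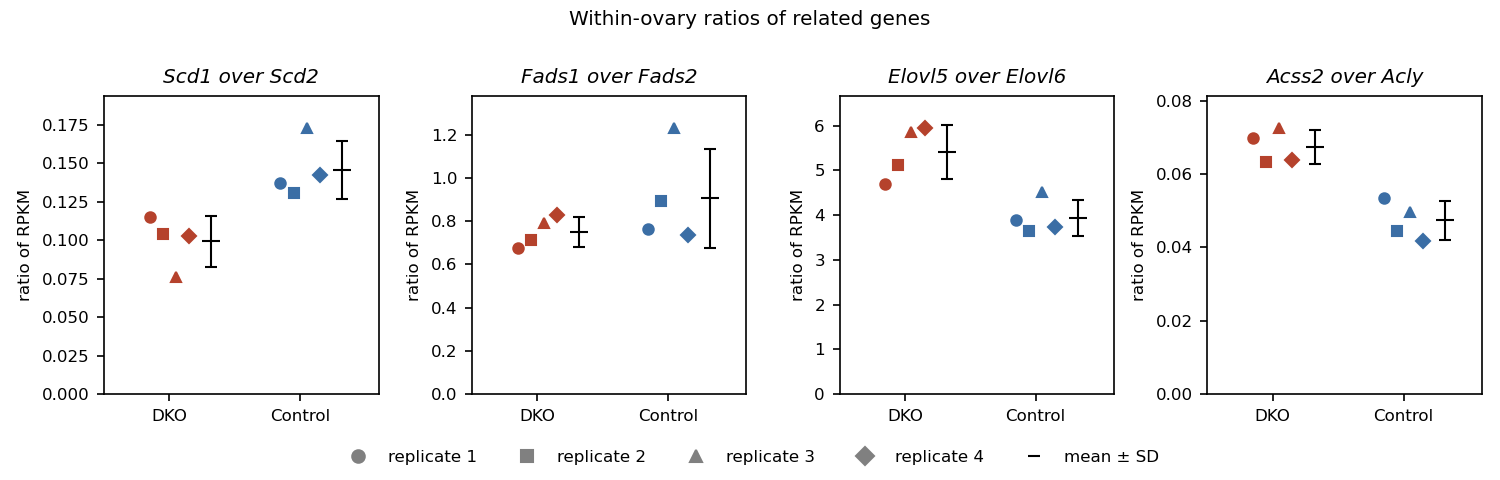
Ratio of the RPKM of related genes within each ovary, DKO in red on the left and Control in blue on the right of each panel, linear axes from 0, a marker shape for each replicate number and black bars for mean ± SD. Scd1 over Scd2 is lower in all DKO ovaries, Elovl5 over Elovl6 and Acss2 over Acly are higher in all DKO ovaries, and Fads1 over Fads2 overlaps.

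The ovaries whose titles carry later numbers were examined by themselves, because they stood apart from the other 3 on the principal component. Within the 2 DKO and 3 Control ovaries of the later titles, all members but Scd1 had both DKO ovaries above the 3 Control ovaries. Their log2 fold changes there were 1.21 for Acss2, 1.06 for Elovl5, 1.11 for Fads1 and 1.26 for Fads2, all larger than over 8 ovaries. They were 0.62 for Acly, 0.47 for Elovl6, 0.57 for Scd2, 0.39 for Acaca, 0.36 for Fasn and -0.14 for Scd1. Acss2, Elovl5 and Fads1 passed edgeR's test over these 5 ovaries, where 0.599% of genes tested were called higher, and Fads2 did not (adjusted p = 0.0923). Among the 3 ovaries with earlier numbers, DKO replicates 1 and 2 both exceeded Control replicate 1 in 8 of the 10 genes, the exceptions being Acaca and Fasn. For 7 genes, Acss2, Acly, Elovl5, Elovl6, Fads1, Fads2 and Scd2, the DKO ovaries were above in both sets. This follows from their lack of overlap over all 8 ovaries and adds nothing to it. In DKO the later ovaries were also higher than the earlier ones in 8 of 10 genes, all but Scd1 and Scd2. The share of all genes that separate in these ways was not computed. With so few ovaries in a set many genes can do so, and these counts are no result about the 10 genes. With the 2 sets of title numbers as a block over all 8 ovaries, 6 of the 10 genes passed, Acly and Elovl6 besides the 4, against 1.82% of all genes called higher.

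The number of calls depended on the model and on single ovaries. DESeq2 called 7 of the 10 genes higher, adding Acly, Elovl6 and Scd2, against 3.77% of all genes. Limma-voom with sample quality weights called the same 7, against 5.9% of all genes. That fit leaned on Control replicate 2, which had a weight of 4.24, against 0.355 to 1.52 for the other ovaries. Without DKO replicate 2 and Control replicate 1, the ovaries high in Ovgp1, only Acss2 passed (log2 fold change 1.09, adjusted p = 0.0349), against 0.291% of all genes. Elovl5, Fads1 and Fads2 then had log2 fold changes of 0.91, 0.95 and 1.17 (adjusted p = 0.0644, 0.0652 and 0.0802). Leaving out 1 ovary at a time gave 2, 1, 0 and 1 called genes without DKO replicates 1 to 4, and 2, 0, 3 and 1 without Control replicates 1 to 4. Calls over the whole table fell in most of these fits too, with 0.332%, 0.269%, 0.0467% and 0.337% of all genes called higher without DKO replicates 1 to 4, and 0.702%, 0.00583%, 1.98% and 0.105% without Control replicates 1 to 4. Without DKO replicate 3 and without Control replicate 2 almost no gene was called, so the count of 0 there is no result about the 10 genes. None of the 10 genes was called lower in any fit. Over the 14 other settings tried the log2 fold changes ran from 1.00 to 1.21 for Acss2, from 0.85 to 1.07 for Elovl5, from 0.83 to 1.135 for Fads1 and from 1.03 to 1.26 for Fads2, and the genes passed in 14, 13, 13 and 8 of them. Adjusted p-values over all 22 alternatives ran from 5.32e-10 to 0.0723 for Acss2, from 2.02e-06 to 0.132 for Elovl5, from 0.00014 to 0.164 for Fads1 and from 0.000252 to 0.183 for Fads2.

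**Figure D4:**
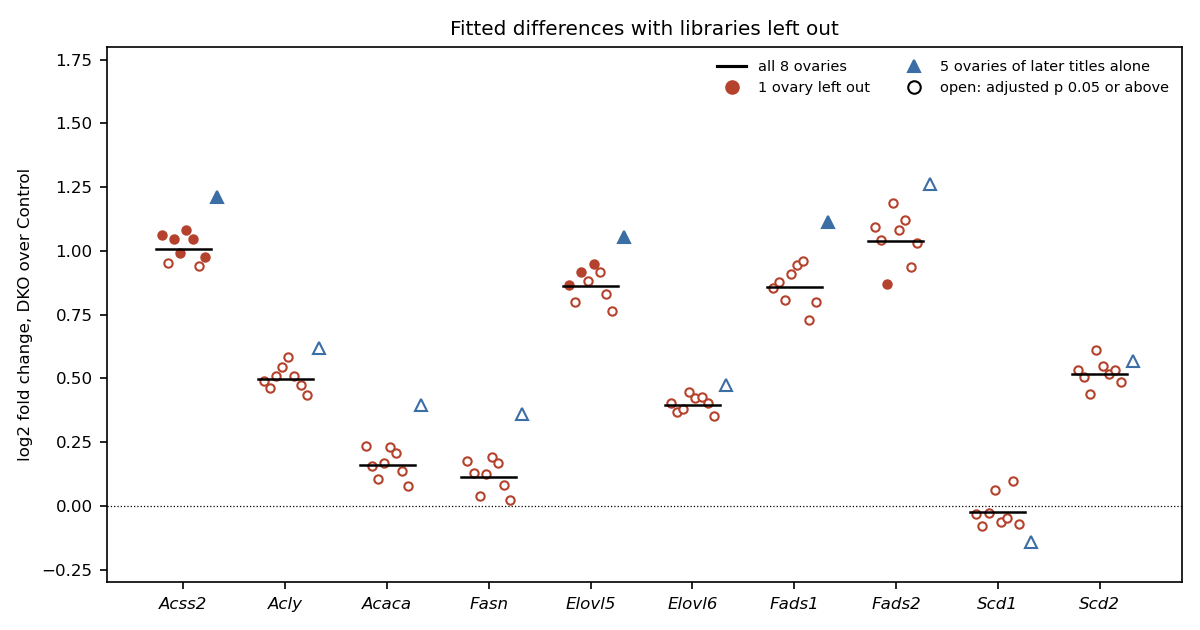
Log2 fold change, DKO over Control, of each gene over all 8 ovaries (black line), in each fit without 1 ovary (red circles) and in the 5 ovaries of the later titles (blue triangles), with filled symbols where the adjusted p was under 0.05. The values of Acss2 stay between 0.94 and 1.21 and are filled in 6 of 8 circles, those of Fads1 are filled only in the triangle, and those of Scd1 lie on both sides of 0.

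The other genes of the pathway were read from 5 lists with 79 genes, of which 76 were tested, 1 was called higher and 0 lower, and 57 had a log2 fold change above 0. Among 23 tested genes of acetyl-CoA and malonyl-CoA supply, elongation and desaturation beyond the 10, only Hacd3 was called. Hacd3 (gene ID 57874, chromosome 9, 64986983 to 65021735), a dehydratase of the elongation cycle that works after the elongases, was at 299, 305, 431 and 404 CPM in DKO, against 191, 203, 229.9 and 201.96 CPM in Control ovaries. All DKO ovaries were above all Control ovaries, and the log2 fold change was 0.80 ± 0.14 (adjusted p = 0.035). That call ended without Control replicate 2 or 4 (adjusted p = 0.148 and 0.110) and without DKO replicate 3 or 4 (0.102 and 0.0643). The list's median was 0.06 and 14 of its 23 tested genes lay above 0. Slc25a1, the citrate carrier, is listed at 0 in all ovaries and its annotation spans 2 reference sequences. Of 1646 genes on more than 1 sequence, 871 were at 0 in all libraries, so that value is not taken as a measure of its expression. The cause was not tested. In the lists below, Agpat1 (4 sequences, 0 to 2 counts) and Pgd and Acsl3 (2 sequences each, with counts of 396 or more) share this uncertainty.

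Genes that supply NADPH, the reducing agent of fatty acid synthesis, all lay above 0, 6 of 6, with a median log2 fold change of 0.30, but none passed the test. Idh1, the cytosolic isocitrate dehydrogenase, had the smallest adjusted p of this list, with 1490.2 ± 179 CPM in DKO and 912 ± 236 CPM in Control ovaries (SD, n = 4 each), a log2 fold change of 0.71 ± 0.19 and an adjusted p of 0.103. None of the 13 SREBP, LXR and ChREBP regulators passed, and their median was 0.04. Srebf1, which encodes the SREBP that drives fatty acid synthesis, averaged 109.5 ± 5.36 CPM in DKO and 103 ± 9.58 CPM in Control ovaries (0.09 ± 0.09, adjusted p = 0.709). Srebf2, the SREBP gene of cholesterol synthesis, averaged 253 ± 27.4 CPM in DKO and 248.9 ± 19.3 CPM in Control ovaries (0.02 ± 0.11, adjusted p = 0.943). The messenger RNA of a SREBP does not show how much of it is processed to the active form. Scap, the escort protein of SREBP, had the smallest adjusted p of the regulators, with 677, 577, 434 and 385 CPM in DKO, against 292, 291, 371 and 264 CPM in Control ovaries. It was higher in all DKO ovaries, at 0.77 ± 0.19, without passing (adjusted p = 0.0857). Nr1h3, the gene of LXR alpha, had a log2 fold change of 0.33 ± 0.23 (adjusted p = 0.563), and Mlxipl, the gene of ChREBP, of 0.75 ± 0.25 (0.186).

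Of 15 tested acyl-CoA ligases and acyltransferases, which activate fatty acids and place them into glycerolipids, 9 lay above 0 with a median of 0.06 and none passed. Agpat2, an acyltransferase of phosphatidic acid synthesis, came nearest, at 50.8 ± 2.73 CPM in DKO and 32.7 ± 7.03 CPM in Control ovaries (0.64 ± 0.14, adjusted p = 0.0674). All 19 genes of cholesterol synthesis lay above 0, with a median of 0.41, and none passed. Dhcr7, the last enzyme of the pathway, was at 374, 439, 648 and 602 CPM in DKO, against 245, 253, 403 and 277 CPM in Control ovaries, which overlapped through Control replicate 3 (0.81 ± 0.21, adjusted p = 0.108). The median of all genes was -0.02.

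**Figure D5:**
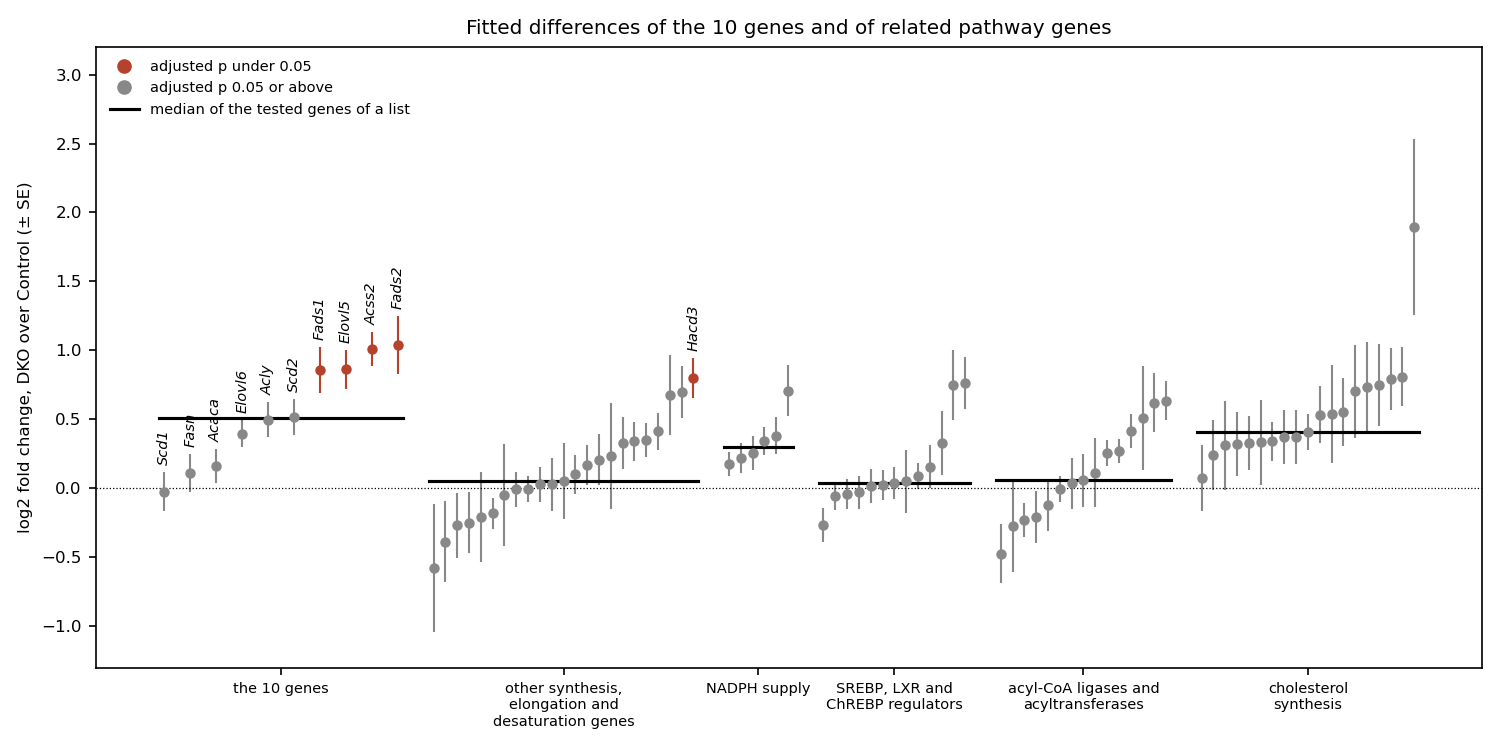
Fitted log2 fold change, DKO over Control, with its SE for each tested gene of the 10 described here and of the 5 related lists, sorted within each list, with a black line at each list's median and genes of adjusted p under 0.05 in red. The 10 genes have a median of 0.51 and 4 red points, and in the other lists Hacd3 alone is red.

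Among the markers of cell types, Hsd3b1, Ptgfr and Plin1 were called higher in DKO and none was called lower. The other differences below, in either direction, did not pass the test. The 8 markers of luteal and steroid-producing cells summed to 16589 to 22062 CPM in DKO and 8647 to 15347 CPM in Control ovaries, without overlap. Of the 8, Hsd3b1 and Ptgfr were called higher, 6 lay above 0, and none was at 0 in all ovaries. Hsd3b1, an enzyme of progesterone synthesis, was at 4999.6 ± 599 CPM in DKO and 2656 ± 646 CPM in Control ovaries (0.91 ± 0.18, adjusted p = 0.0477), and among fits without 1 ovary its call held only without Control replicate 3, with 0.0611 to 0.185 in the other 7. Cyp11a1, the highest of the list, which makes pregnenolone from cholesterol, was at 7941 ± 479 CPM in DKO and 4560.5 ± 1280.5 CPM in Control ovaries (0.80 ± 0.18, adjusted p = 0.0704). The 10 adipocyte markers summed to 105 to 375 CPM in DKO and 57.6 to 127 CPM in Control ovaries, which overlapped, and none was at 0 in all ovaries. In DKO ovaries most of that sum is Plin4, a lipid droplet protein. Plin4 was at 66.9, 317, 205 and 144 CPM in DKO, against 15.2, 29.5, 86.7 and 22.9 CPM in Control ovaries (2.25 ± 0.65, adjusted p = 0.1501). It was the smaller part of the sum in Control replicates 1 and 4, where the 10 markers summed to 81.0 and 68.6 CPM. Retn, Adrb3, Cfd, Adipoq and Cidec, genes of fat cells, had lower means in DKO, with log2 fold changes from -1.71 for Retn to -1.04 for Cidec, and none passed. Lep was too low to be tested, and of the other 9, 3 lay above 0. Plin1, another lipid droplet protein, was the only one called, at 25.2 ± 4.45 CPM in DKO and 10.6 ± 2.50 CPM in Control ovaries (1.25 ± 0.20, adjusted p = 0.0277), and the list's median was -1.04. Its call ended without DKO replicate 1 or 3 (0.0688 and 0.0935) and without Control replicate 2 or 4 (0.0881 and 0.0864). Oviduct markers summed to 768 CPM in DKO replicate 2 and 1199 CPM in Control replicate 1, against 4.56 to 29.6 CPM in the other 6 ovaries. Granulosa cell markers ran from 4035 to 5065 CPM in DKO and from 3619 to 4721 CPM in Control ovaries. Endothelial markers lay above 0 in 6 of 6 (median log2 fold change 0.38), with overlapping sums. Neutrophil markers summed to 2.23 to 3.67 CPM in DKO and 3.84 to 25.0 CPM in Control ovaries, without overlap. Smooth muscle markers lay below 0 in 5 of 5 (median -0.56), oocyte markers in 8 of 8 (-0.36) and theca markers in 4 of 6 (-0.07), with sums that overlapped. No marker of the oviduct, granulosa, endothelial, neutrophil, smooth muscle, oocyte or theca lists passed the test or was at 0 in all ovaries. The part of cell mixture and of residual tissue in the results above was not tested.

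Outside the 10 genes, the genes whose course over the 8 ovaries was most like theirs were sought among the 11582 genes averaging 5 CPM or more, by the root mean square difference between a gene's standardised log2 CPM and the mean of the 10 standardised profiles. Elovl6 lay nearest of all, at 0.21, followed by Echdc1 at 0.21, Ficd at 0.23, Pdp2 at 0.24, and Tnfrsf10b and Sec14l1 at 0.25 each. The 10 genes are part of the mean they are set against. Acaca, Fasn and Scd1 ranked 399, 914 and 6174, so the mean profile is mostly that of the other 7. That profile ran from -1.29 to -0.26 in Control ovaries and from 0.17 to 1.55 in DKO ovaries, without overlap. Genes chosen for lying near it are higher in DKO through that choice. Their differences between the groups, and any call among them, are therefore no separate result. Echdc1, which encodes ethylmalonyl-CoA decarboxylase, was at 47.5, 53.0, 56.9 and 58.5 CPM in DKO, against 40.6, 34.5, 31.2 and 42.7 CPM in Control ovaries. It did not overlap between the groups and did not pass the test (0.54 ± 0.12, adjusted p = 0.0716). Ficd, which modifies a chaperone of the endoplasmic reticulum, was the only one of the 5 called, at 15.6 ± 1.49 CPM in DKO and 10.05 ± 0.791 CPM in Control ovaries (0.64 ± 0.13, adjusted p = 0.0491), and its call ended in 7 of 8 fits without 1 ovary (0.0565 to 0.191), holding without Control replicate 3. Among the 10 themselves, Acss2 and Elovl5 were closest, at 0.20, and Fads1 and Scd1 farthest apart, at 1.51. These distances describe 8 ovaries and carry no test.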

How the data were processed

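RNA of whole ovaries was sequenced with a stranded poly(A) kit, per the labels' protocols. The authors deposited raw counts per gene, counted by featureCounts (Subread 1.5.2), and the file headers record reverse-stranded counting of exons by gene ID on the RefSeq annotation of GRCm38.p5. The submitters' processing notes also name STAR 2.4.2a, bcl2fastq 2.17.1.14, edgeR 3.12.0, Trimmomatic in versions 0.36 and 0.33, and GRCm38.p3, without roles. No option for reads with several matches was set, so near-identical genes are uncertain. Gene symbols came from a RefSeq table of GRCm38.p6, which matched 40290 of 41591 IDs (96.9%).

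From the counts, genes kept by filterByExpr (16870) were fitted over all 8 libraries, with no covariate, in edgeR 4.0.16 (R 4.3.3, limma 3.58.1, DESeq2 1.42.0, Python 3.11.15). The test was the two-sided quasi-likelihood F-test with robust dispersions, TMM factors of 0.943 to 1.06, Benjamini-Hochberg adjustment over all genes and a threshold of 0.05. The common biological coefficient of variation came to 0.281. The SE is the log2 fold change divided by the square root of F. RPKM used the exon lengths in the tables. Totals of 33145056 to 39257648 counts leave little counting error for genes at these levels, and intervals cover the spread between ovaries, of which the design text gives 4 mice per group. No libraries of a group agreed within sampling noise (reduced chi-square 25.05 to 143). On simulated counts for 16591 genes, recovery was 25.4% for genes with a 1.5-fold change, 83.6% at 2-fold and 100% at 4-fold, with 5.44% of calls false. The changed genes there averaged 5 CPM or more, and counts were drawn independently for each gene and ovary. Sets of ovaries that deviate together, as in the real data, were not simulated, so these rates may not hold for the real data.

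The 10 genes and the lists were chosen with earlier results of these data known. All 10 are named, and of each other pathway list up to 3 called genes or, with none, the gene with the smallest adjusted p, besides Insr, Igf1r, Pgr, 4 regulators, 5 genes of like profile and up to 2 markers of a list, the highest by mean CPM. Ptgfr, Slc25a1, Acss2os, Retn, Adrb3, Cfd, Adipoq and Cidec were named after their values were seen. Alternatives were 3 scalings, 2 filters, DESeq2, limma-voom with and without quality weights, non-robust dispersions, a replicate block, a title number block, the later titles alone and each library left out. Fits without the ovaries high in Ovgp1 or in ribosomal RNA were chosen after seeing the data.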

Additional observations from a re-analysis of the deposited data

Results flagged for a closer look

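In DKO ovaries Scd1 was lowest in replicate 3, at 159 CPM, and the other 3 lay at 224 to 230.1 CPM, close together. Igf1r in DKO ovaries was highest in 1 ovary, at 247 CPM. The 5 oviduct markers summed to 768 CPM in DKO replicate 2 and to 1199 CPM in Control replicate 1, each far from the other 3 ovaries of its group. Cyp11a1 in Control ovaries was highest in replicate 3, at 6472 CPM. In all 5 cases the gap to the nearest ovary of the group, divided by the group's range, exceeded Dixon's critical value for 4 samples. Of 94 groups examined, 5 were marked in this way, and chance marks about 5% of groups.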

How the results depend on the processing

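Acss2 passed the test in all 14 settings other than leaving out 1 ovary, and in 6 of 8 fits without 1 ovary. The number of the 10 genes called, 4 as reported, was 7 with DESeq2, 7 with limma-voom and quality weights and 1 without the ovaries high in Ovgp1, and 0 to 3 without 1 ovary. The 212 genes called over the whole table became 1107 with DESeq2, 1651 with quality weights, 743 with the replicate block, 526 with the title number block, 97 without the ovaries high in Ovgp1, 64 without those high in ribosomal RNA, and 2 to 506 without 1 ovary, lowest without Control replicate 2. The listed pathway genes called, 1 as reported, were 3 with no filter, 11 with DESeq2, 19 with quality weights, 11 with the replicate block, 6 with the title number block, 7 in the later titles alone, 0 without the ovaries high in Ovgp1, 4 without those high in ribosomal RNA, and 0 to 6 without 1 ovary. The sign turned for Scd1 with quality weights (log2 fold change 0.0070) and for Igf1r in the later titles alone (0.0136). Without 1 ovary the value ranged from -0.0784 to 0.0984 for Scd1 and from -0.0494 to 0.0747 for Srebf2. The cause was not tested. Same-numbered ovaries deviated with correlations of 0.156, -0.359, 0.312 and 0.468, which does not settle whether the replicate numbers pair the ovaries. In replicates 1, 3 and 4 both ovaries also fall in the same set of title numbers. With the replicate block 6 of the 10 genes were called, Acly, Elovl6 and Scd2 besides Acss2, Elovl5 and Fads1, and Fads2 was not (adjusted p = 0.0673). Scaling moved the median of all genes by at most 0.01.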
